A study of Macaca mulatta with 4 samples.

Results

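Chromosome 17 of the rhesus macaque (Macaca mulatta) was described through all of its DNase I hotspots in 4 libraries of morula-stage embryos. A hotspot is a stretch of DNA that was cut by DNase I more often than its surroundings, as listed separately for each library, with a false discovery rate of 0.01 named by the deposited files. Every hotspot that the lists place on chromosome 17 was taken, which gave 9201 of 328084 hotspots. Overlapping or touching hotspots of the 4 lists were merged, which gave 6729 of 222970 merged regions. The chromosome was chosen by measured values, its low hotspot density and its larger share of covered length in gynogenetic embryos, so both are given as descriptions without a test.

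The androgenetic group (AG, 2 libraries) came from embryos whose nuclear genome derives from sperm, and the gynogenetic group (GG, 2 libraries) from embryos whose nuclear genome derives from the oocyte. All 4 libraries came from morulae digested with DNase I at 40 U/ml for 5 min at 37 °C. The labels give no strain or age, no number of embryos per library and no word on whether 2 replicates are different embryos. A p-value between groups therefore reflects the spread of these 4 libraries alone, and part of that spread may be technical. Over all chromosomes the lists held 64730 to 93171 hotspots and covered 67.8 and 84.3 Mb in the AG libraries and 102 and 93.2 Mb in the GG libraries, a ratio of GG to AG means of 1.28. Read counts are not part of the lists, so depth is unknown and a longer list cannot be told apart from deeper sequencing. As a check of the labels, each AG list held 1 hotspot on the Y chromosome, which oocytes do not carry, and each GG list held 0. Positions are on rheMac8, counted from 1, and were set against no gene annotation, so the morula label was not checked with marker genes.

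DNase I cuts chromatin most readily where nucleosomes are displaced, at active promoters, enhancers and other regulatory elements. Macaque chromosome 17 is the counterpart of human chromosome 13, a gene-poor chromosome with long gene deserts that carries the tumour suppressor genes RB1 and BRCA2. Gene-rich, early replicating DNA generally holds more accessible sites than gene deserts do. In embryos with chromosomes of a single parental origin, a difference between AG and GG sets paternal against maternal copies, together with any difference in how the embryos were made.

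Chromosome 17 held few hotspots in every library. Its 1653 hotspots in AG replicate 1 took up 1574 kb and its 2236 in AG replicate 2 took up 1998 kb. In GG replicate 1 the 2882 hotspots took up 2948 kb, and in GG replicate 2 the 2430 took up 2434 kb. The GG libraries were both above the AG libraries in number and in covered length. Hotspots took up 1.65 and 2.09% of the chromosome in AG and 3.08 and 2.54% in GG, where the other autosomes were covered to 2.57 and 3.19% and to 3.84 and 3.52%. Density was 17.3 and 23.4 hotspots per Mb in AG and 30.1 and 25.4 in GG, which is 0.707, 0.726, 0.861 and 0.796 times that of the other autosomes in the same library. Of 20 autosomes, counted from the least dense, chromosome 17 had rank 3 in AG replicate 1 and GG replicate 1, rank 1 in AG replicate 2 and rank 2 in GG replicate 2.

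**Figure D1:**
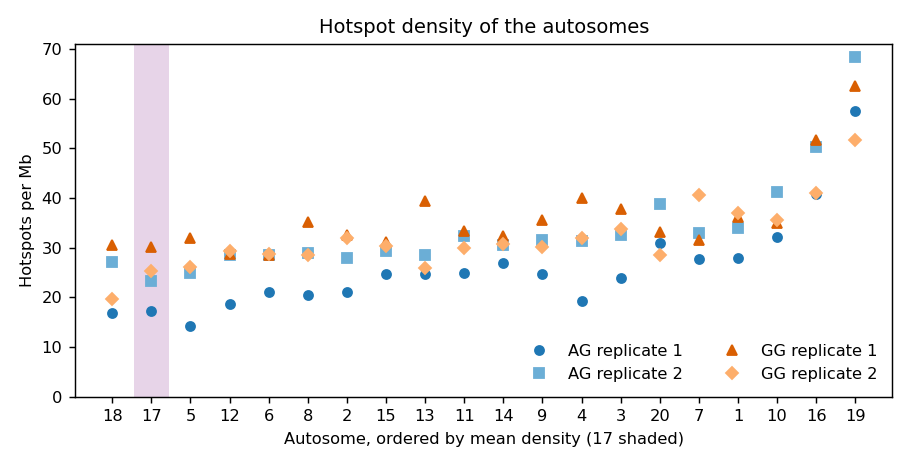
Hotspots per Mb (vertical axis) of the 20 autosomes, ordered by their mean over the 4 libraries, with a marker for each library and chromosome 17 shaded. Chromosome 17 lies at the sparse end, at 17.3 to 30.1 hotspots per Mb, and its AG libraries lie below its GG libraries.

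The share of a library's covered length that lay on chromosome 17 was 2.32 and 2.37% in AG and 2.89 and 2.61% in GG. The groups did not overlap, with means of 2.35 ± 0.0355% and 2.75 ± 0.194% (SD, n = 2 each), 1.17 times higher in GG. AG minus GG was -0.404 percentage points, -0.267 without GG replicate 1, and -0.261 with all lists shortened by score to equal covered length. Chromosomes 18 and 5 had about the same density, with means over the libraries of 23.6 and 24.3 hotspots per Mb against 24.0 on chromosome 17. The share was 0.989 times as high in GG as in AG for chromosome 18 and 1.27 times for chromosome 5. The share of chromosome 17 divided by that of chromosome 18 was 1.38 and 1.14 in AG and 1.33 and 1.69 in GG, so the groups overlapped, and divided by that of chromosome 5 it was 0.617 and 0.454 in AG and 0.489 and 0.476 in GG, again overlapping.

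Single hotspots on chromosome 17 had lower median widths than those elsewhere in every library. Median width was 821 and 814.5 bp in AG and 840 and 843 bp in GG, against 907, 892, 906 and 922 bp on the other autosomes. The similarly sparse chromosomes 5 and 18 averaged 842 and 854 bp over the libraries, against 830 bp on chromosome 17. AG minus GG was -23.75 bp (means 817.75 ± 4.6 bp and 841.5 ± 2.12 bp, SD over 2 libraries a group), with a two-sided exact permutation p = 0.333, the smallest that 2 libraries against 2 allow. The difference was -105.5 bp with lists of equal number and -203 bp with lists of equal covered length. Hotspots over 2 kb made up 6.90 and 4.07% in AG and 9.20 and 8.02% in GG. The groups were also apart on the other autosomes, at 8.97 and 6.76% in AG and 11.1 and 10.8% in GG. The lower and upper quartiles of width were 601 and 1093 bp in AG replicate 1 and 617 and 1129 bp in GG replicate 1, and the widest hotspot of any list, 11222 bp, belonged to AG replicate 2.

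Hotspots were unevenly spread along the chromosome, fullest in the first 10 Mb and from 20000001 to 30000000, and with less in each segment between 30000001 and 70000000. In the first 10 Mb, coverage was 321 and 413 kb in AG and 520 and 456 kb in GG. The segment from 40000001 to 50000000 had 49.5 and 106 kb (AG) and 209 and 143 kb (GG), and that from 60000001 to 70000000 had 67.5 and 85.9 kb (AG) and 220 and 165 kb (GG). Between these sparse stretches lay a denser island, whose peak window, from 54000001 to 55000000, had 42.2 and 47.7 kb in AG and 74.4 and 80.5 kb in GG. The last 5.67 Mb held 124 and 139 kb in AG and 202 and 162 kb in GG.

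The AG libraries were relatively emptier in the middle of the chromosome than at its ends. Over the first 3 segments of 10 Mb, GG covered 1.34 times as much as AG (means of 1251 and 937 kb), and over segments 8 to 10 it covered 1.35 times as much (540 and 400 kb). Both ratios are near the 1.28 of the whole lists. Over segments 4 to 7, from 30000001 to 70000000, GG covered 2 times as much (means of 899.9 and 449 kb). The single values there were 375 and 523 kb for the AG libraries and 1021 and 779 kb for the GG libraries. These segments made up 23.8 and 26.2% of the chromosome's covered length in AG and 34.6 and 32.0% in GG, while the first 3 segments made up 53.7 and 51.4% in AG and 45.1 and 48.2% in GG. The grouping of segments was chosen after these values were seen.

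**Figure D2:**
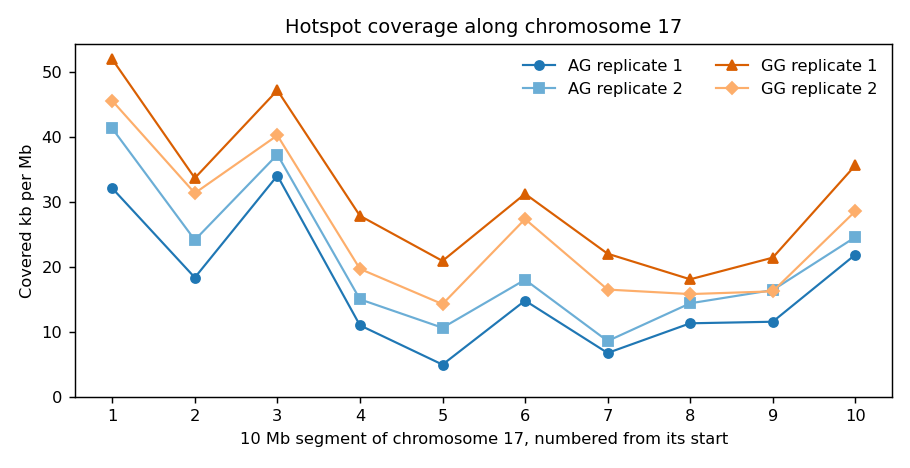
Covered kb per Mb (vertical axis) in 10 Mb segments of chromosome 17, numbered from its start (the last is 5.67 Mb long), with a line for each library. All libraries share the outline of dense segments 1 and 3 and sparse segments 5 and 7, and the gap between AG and GG is proportionally widest in segment 7, at 2.51 times higher in GG.

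No window of 1 Mb was empty in any library, since the 96 windows of the chromosome each held hotspots in all 4 lists. At 200 kb, 88 and 31 of 479 windows held no hotspot in AG replicates 1 and 2, and 15 and 24 in GG replicates 1 and 2. The percentage of empty 200 kb windows averaged 12.4 ± 8.41 over the AG libraries and 4.07 ± 1.33 over the GG libraries (SD, n = 2 each). AG replicate 1, whose list is the shortest, stood at 18.4%. No value of the other autosomes is set beside these, so the gap between groups is not read as particular to chromosome 17. The longest stretch without a hotspot was 1226 kb in AG replicate 1 (85364377 to 86590652), 1083 kb in AG replicate 2 (67025436 to 68107968), 458 kb in GG replicate 1 (78045541 to 78503434) and 609 kb in GG replicate 2 (33736260 to 34345062). These 4 stretches lie at different places. Stretches that were empty in every list were much shorter, the longest being 349 kb (45685938 to 46034564) and the next 261 kb (86029666 to 86290818), 193 kb (69752669 to 69945495), 192 kb (49545183 to 49736895) and 186 kb (48943022 to 49129287).

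Concentration of covered length in the fullest windows overlapped between the groups. The 10 fullest windows of each library held 28.8 and 24.6% of its chromosome 17 coverage in AG and 23.6 and 25.2% in GG, where the fullest 10% of all autosomal windows held 28.8, 25.1, 23.9 and 23.7%. The groups overlapped (26.7 ± 2.94% and 24.4 ± 1.13%, SD, n = 2 each; two-sided exact permutation p = 0.667), and AG minus GG was 2.33 percentage points. It was 0.250 without AG replicate 1 and 4.41 without AG replicate 2. It was 3.44 in the higher-scoring 50% of the lists and 1.501 with lists of equal number, where the groups no longer overlapped and the two-sided exact permutation p was 0.333 in each case, and it was -0.481 with lists of equal covered length.

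The window from 1000001 to 2000000 was the fullest, with 62.8 and 57.0 kb in AG and 100.2 and 76.1 kb in GG. The windows starting at 27000001 (48.1 and 58.8 kb in AG, 76.5 and 62.6 kb in GG), 54000001, 7000001 (49.2 and 47.3 kb, 66.8 and 60.2 kb) and 9000001 (39.3 and 48.4 kb, 74.9 and 58.3 kb) followed. Raw coverage was higher in both GG libraries than in both AG libraries in these 5 windows, and after each library was scaled to its own mean the fitted log2 differences ran from -0.42 to -0.02. The emptiest window, from 86000001 to 87000000, had 2.10 and 3.32 kb in AG and 9.93 and 5.24 kb in GG. It was followed by the windows starting at 36000001, 49000001, 85000001 and 33000001, whose means over the 4 libraries were 5.25, 5.28, 6.12 and 6.29 kb.

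AG was then compared with GG window by window. For each 1 Mb window, covered bp plus an offset of 1000 bp was divided by the library's mean of that quantity and put on a log2 scale, so a library's total length is taken out, and fold changes understate differences of sparse windows. All 2682 windows of the genome averaging 2000 covered bp or more were fitted together with limma, and all 96 windows of chromosome 17 were among them. GG was higher in 71 of the 96 windows, against 53% of all windows tested, and the median log2 difference (AG minus GG) was -0.30 on chromosome 17 and -0.04 over all windows. Centring each library within chromosomes takes out its mean on each chromosome, so a chromosome-wide difference between groups is removed by construction. After it 40 of 96 windows were higher in GG and the median was 0.09, which says nothing about the direction of the chromosome. With lists of equal covered length 59 of 95 were higher in GG, with a median of -0.19. Scaling to the library median in place of the mean moved the median of all windows from -0.04 to 0.08, moved that of chromosome 17 to -0.18, and left 64 of 96 higher in GG.

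The chromosome was chosen by its covered length in AG and GG, so the counts and p-values of its windows order and describe them and are not independent evidence of a direction. By limma with Benjamini-Hochberg adjustment over all 2682 windows, 0 of the 96 windows passed an adjusted p of 0.05, as did 0% of all windows. At an unadjusted p under 0.05 by limma there were 17, or 17.71% of the 96, against 18.01% of all windows. Small p-values were thus no more frequent on chromosome 17 than over all windows, and only their split by direction differed. GG was higher in 16 of the 17 (16.7% of the 96, against 11.3% of all windows) and AG in 1 (against 6.67%). Of these 17 windows, 15 lay between 30000001 and 70000000. With a variance trend in limma 4 windows of chromosome 17 passed an adjusted p of 0.05, as did 218 of all 2682, and with an offset of 10000 bp 4 did, as did 136 of all.

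Over 2-fold differences ran in a single direction. GG was over 2-fold higher in 16 of the 96 windows, or 16.7%, against 8.72% of all windows, and AG in 0, against 2.65%. Of the 16, 15 lay between 30000001 and 70000000. The number was 10 without GG replicate 1 (8.84% of all windows), 10 with lists of equal number (7.81% of all) and 8 of 95 with lists of equal covered length (5.81% of all). Centred within chromosomes, which removes the chromosome-wide difference, it was 6 (5.00% of all), and 3 windows were over 2-fold higher in AG. It was 2 with an offset of 10000 bp (0.895% of all). Both GG libraries lay above both AG libraries in 45 windows (46.9%, against 28.9% of all windows) and both AG above both GG in 15 (15.6%, against 24.1%). Other chromosomes had like values: on chromosome 5, 24.6% of windows were over 2-fold higher in GG and 48.2% had both GG libraries above both AG libraries, and on chromosome 4 these were 14.5 and 46.8%.

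Fitted differences on the log2 scale were wider in the sparser windows of the chromosome. Among 16 windows with a mean under 10 kb, the median log2 difference was -0.81 and 7 were over 2-fold higher in GG (43.8%). On the other autosomes, 265 windows under 10 kb had a median of -0.07 and 14.3% over 2-fold higher in GG. The lowest mean was 5.15 kb on chromosome 17 and 2.63 kb over all windows tested, so coverage is not matched inside this class. Among 35 windows of 10 to 20 kb the median was -0.45 and 8 were over 2-fold higher in GG (22.9%), against -0.23 and 17.7% of 650 windows elsewhere. Among 19 windows of 40 kb or more the median was -0.22, none was over 2-fold, and 797 windows elsewhere had a median of 0.08. Both GG libraries lay above both AG libraries in 50, 48.6, 42.3 and 47.4% of windows from the sparsest to the fullest class, against 25.3, 34.5, 33.5 and 18.2% on the other autosomes. Non-overlap was thus about as frequent in full windows as in sparse ones. Neighbouring windows are not independent and these comparisons carry no test.

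**Figure D3:**
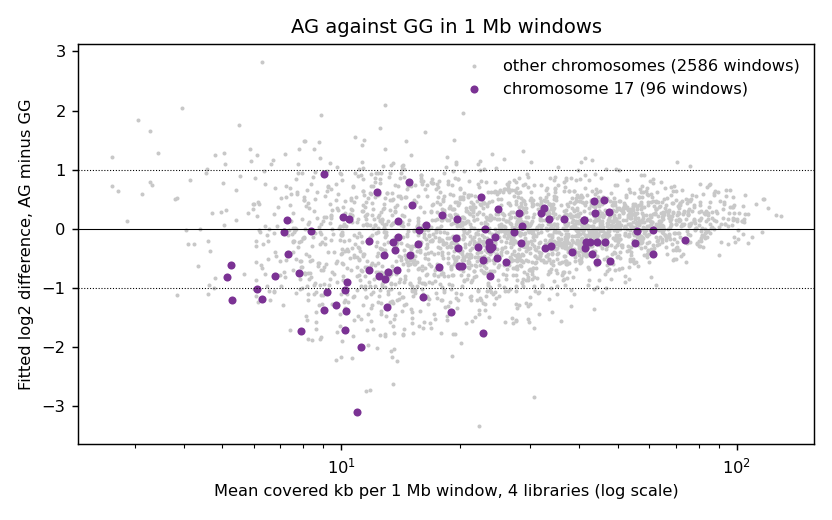
Fitted log2 difference, AG minus GG (vertical axis), against mean covered kb of each 1 Mb window on a log scale, with the 96 windows of chromosome 17 in purple and the other windows in grey. Dotted lines mark 2-fold, and 16 purple points lie below the lower line and 0 above the upper line.

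The window from 67000001 to 68000000 had the smallest p and the widest difference on the chromosome. Hotspots covered 0.879 and 1.05 kb in AG and 24.7 and 17.1 kb in GG, which is a log2 difference of -3.10 (SE 0.25), or 8.59-fold higher in GG after scaling. The limma adjusted p was 0.0642, and over the alternatives it ranged from 0.00393 to 0.567. With an offset of 10000 bp the log2 difference was -1.21. Leaving out any 1 library kept the log2 difference between -3.29 and -2.91. It was the only window of the chromosome over 4-fold, against 0.559% of all windows.

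Its single hotspots show how the difference is made up. AG replicate 1 had 2 hotspots there, of 332 and 547 bp, and AG replicate 2 had 1, of 1054 bp near the window's start. GG replicate 1 had 32 and GG replicate 2 had 21. They merged into 48 regions, of which 42 were called in 1 list (25 in GG replicate 1, 15 in GG replicate 2, 1 in each AG list), 5 in both GG lists and neither AG list, 1 in 3 lists and 0 in all 4. Scores in the window were near the middle of each GG list's range on the chromosome. Their median was 5.28 in GG replicate 1, where 18 of 32 lay above the chromosome's median of 5.14, and 5.07 in GG replicate 2, where 9 of 21 lay above its median of 5.30. Both GG libraries thus had many hotspots in this window, mostly at different positions.

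The other windows with small p and higher values in GG had the same make-up, sparse in AG and of moderate coverage in GG. The window from 48000001 to 49000000 had 1.57 and 5.01 kb in AG and 21 and 17.3 kb in GG (log2 -2.0, SE 0.36, limma adjusted p = 0.145, range over alternatives 0.0255 to 0.567). The window from 37000001 to 38000000 had 4.41 and 13.1 kb in AG and 37.3 and 36.3 kb in GG (log2 -1.76, SE 0.40, limma adjusted p = 0.152, range 0.00334 to 0.567), and AG replicate 2 lay well above AG replicate 1. Groups did not overlap in either window. With each library left out in turn the log2 differences ranged from -2.46 to -1.54 for the window at 48000001 and from -2.30 to -1.22 for that at 37000001.

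Next by p came the windows starting at 63000001 (3.51 and 3.79 kb in AG, 15.9 and 12.8 kb in GG, log2 -1.37), 62000001 (8.78 and 7.33 kb, 33.5 and 25.9 kb, log2 -1.40) and 68000001 (1.79 and 2.61 kb, 19.3 and 7.95 kb, log2 -1.73). Their limma adjusted p-values were 0.132, 0.149 and 0.151, and over the alternatives they ranged from 0.104, 0.0326 and 0.0976 to 0.567. The window at 62000001 passed 0.05 with an offset of 10000 bp (limma adjusted p = 0.0326) and with a variance trend (limma adjusted p = 0.0330). With single libraries left out the log2 difference at 68000001 ran from -2.26 to -1.21, the latter without GG replicate 1. The 6 windows named here as higher in GG held 0 regions present in all 4 lists and 0 AG-only regions, and each held 1 to 9 GG-only regions. They were picked for higher coverage in GG than in AG, so these counts follow in part from the choice.

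Windows higher in AG were fewer and differed by less. The window from 26000001 to 27000000 had 15.3 and 19.1 kb in AG and 13.1 and 11.6 kb in GG, a log2 difference of 0.79 (SE 0.22, limma adjusted p = 0.182, range over alternatives 0.0736 to 0.586). Both AG libraries lay above both GG libraries there before and after scaling, and it lies next to the full window at 27000001, whose log2 difference was -0.02. The first window of the chromosome had 39.7 and 57.4 kb in AG and 48.0 and 39.0 kb in GG (log2 0.50), and the window starting at 3000001 had 18.4 and 30.3 kb in AG and 23.2 and 18.6 kb in GG (log2 0.53). In these raw coverage overlapped between groups and the order rests on scaling. The windows starting at 93000001 (log2 0.62) and 22000001 (log2 0.47) also had both AG libraries above both GG libraries after scaling. The largest fitted difference on the AG side, 0.93 in the window starting at 87000001, came with overlapping groups (7.60 and 13.2 kb in AG, 11.9 and 3.28 kb in GG) and ranged from 0.19 to 1.66 over the left-out libraries.

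Some windows of the same direction lay side by side. After scaling, the 45 windows with both GG libraries above both AG libraries formed 23 runs, single windows included. The 15 windows of the other direction formed 11. Whether windows of a direction cluster more than their number alone would bring was not tested. The longest run in which both GG libraries exceeded both AG libraries spanned 6 windows, from 47000001 to 53000000, with 19.2 and 35.8 kb in AG and 109 and 82.8 kb in GG. Its fitted log2 differences ran from -2.0 to -0.69, and it held 2 regions of all 4 lists, 2 AG-only and 15 GG-only regions. A run of 4 windows from 62000001 to 66000000 had 24.1 and 24.8 kb in AG and 90.6 and 66.4 kb in GG, with 1 region of all 4 lists, 0 AG-only and 16 GG-only regions. Runs were picked by the order of the groups, so such counts of regions follow in part from the choice. A further run of 4, from 28000001 to 32000000, had smaller log2 differences, from -0.31 to -0.22, and held 25 regions of all 4 lists. The longest run with both AG above both GG spanned 3 windows, from 79000001 to 82000000, with log2 differences of 0.17 to 0.27. Its raw coverage, 71.8 and 86.8 kb in AG and 97 and 77.6 kb in GG, overlapped, so the order rests on scaling.

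Merged regions were next sorted by the lists that held them, with at least 1 bp of overlap counted as present. Of the 6729 regions, 5308 (78.9%) were called in 1 list, 848 (12.6%) in 2, 315 (4.68%) in 3 and 258 (3.83%, against 5.9% of all merged regions) in all 4. Over the whole series the shares in 1, 2 and 3 lists were 74.9, 13.8 and 5.40%. GG replicate 1 alone accounted for 1713 regions (25.5%, against 20.9% on the other autosomes), GG replicate 2 for 1344, AG replicate 2 for 1415 and AG replicate 1 for 836. Regions of all 4 lists came to 2.70 per Mb on chromosome 17 and 5.00 per Mb on the other autosomes. The similarly sparse chromosomes 5 and 18 had like values, at 2.66 and 2.93 per Mb and 3.69 and 4.28% of their regions. When a list had to cover 50% of the region to count, 81 regions of chromosome 17 were in all 4.

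**Figure D4:**
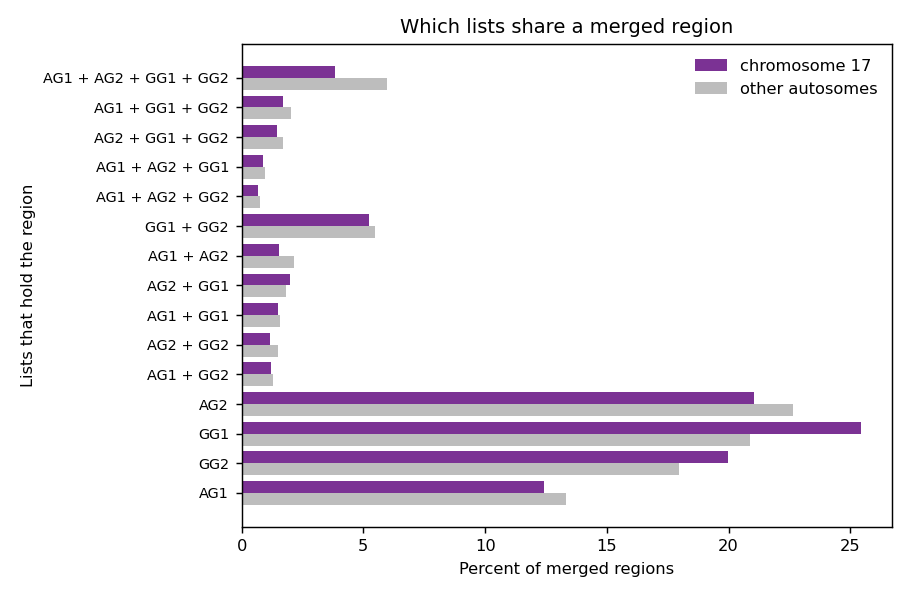
Percent of merged regions (horizontal axis) held by each combination of lists (AG1 is AG replicate 1, and so on), for chromosome 17 in purple and the other autosomes in grey. Chromosome 17 has a smaller part of its regions in all 4 lists (3.83 against 5.97%) and a larger part in GG replicate 1 alone (25.5 against 20.9%).

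Both AG lists and neither GG list held 103 regions (AG-only, 1.53%, against 2.12% of all merged regions), and both GG lists and neither AG list held 351 (GG-only, 5.22%, against 5.48%). There were 3.41 GG-only regions for each AG-only region on chromosome 17 and 2.56 on the other autosomes. Pairs of an AG and a GG list alone held 78 to 133 regions each, so the AG-only count lies within that range and the GG-only count above it. With lists of equal covered length there were 124 AG-only and 167 GG-only regions, and without GG replicate 1, where both AG lists need only be free of GG replicate 2, there were 162 AG-only regions.

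Regions found in more lists were wider. Median width was 2846.5 bp for the 258 regions of all 4 lists, 1847 bp for those of 3, 1404 bp for GG-only, 1295 bp for AG-only, 1158.5 bp for those of an AG and a GG list and 724.5 bp for those of 1 list. A merged region spans all its hotspots, so width grows with the number of lists in part by construction. On the other autosomes the medians were 2928 bp for all 4 lists, 1375 bp for GG-only and 1329.5 bp for AG-only regions. Regions of all 4 lists lay mostly in the front part of the chromosome, with 159 in the first 3 segments (5.30 per Mb), 53 in segments 4 to 7 (1.33 per Mb) and 46 in segments 8 to 10 (1.79 per Mb). GG-only regions were spread more evenly than these, at 155, 127 and 69, and AG-only regions numbered 54, 25 and 24. Before the chromosome's midpoint lay 72.1% of regions of all 4 lists, 59.3% of GG-only and 63.1% of AG-only regions. For regions of 1 list, which are most of the chromosome's regions, it was 55.1%, so the even spread is not particular to GG-only regions.

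Overlap between whole lists was low on this chromosome. By Jaccard index, the shared covered bp over the total covered bp of a pair, the GG libraries reached 0.204 and the AG libraries 0.140, while pairs of an AG and a GG library ranged from 0.111 to 0.139. The same pairs had 0.249, 0.169 and 0.144 to 0.174 on the other autosomes. On chromosome 17 the AG pair thus lay barely above the highest mixed pair, and on the other autosomes inside the mixed range. The mean excess within groups was 0.0468, and it came to 0.0150 and 0.0147 without GG replicate 1 and GG replicate 2 and to 0.0912 without AG replicate 1. With 4 libraries no test of this excess can pass 0.05.

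Hotspots of high score recurred far more often than those of low score. Hotspots of each list on the chromosome were split by score into 4 classes of equal number. In the lowest class, 12.3% of AG replicate 1, 7.69% of AG replicate 2, 11.1% of GG replicate 1 and 16.6% of GG replicate 2 overlapped a hotspot of the same group's other list. In the top class the shares were 60.0, 48.3, 64.2 and 66.6%. Median widths were 615 to 667 bp in the lowest class and 1112 to 1312 bp in the top class. Wider hotspots meet an overlap of 1 bp more easily, and the part of width in the recurrence was not tested. Top-class hotspots of AG replicate 1 overlapped GG replicate 1 and GG replicate 2 in 58.8 and 55.7% of cases, about as often as AG replicate 2. Those of GG replicate 1 overlapped the AG lists in 47.0 and 44.4%. A list that covers more is overlapped more easily. The GG lists covered 2948 and 2434 kb of the chromosome and the AG lists 1574 and 1998 kb. These shares are therefore not read as a difference between groups. The score is the authors' own value, of unstated scale, and orders hotspots here only inside their own list, besides picking the regions named next.

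**Figure D5:**
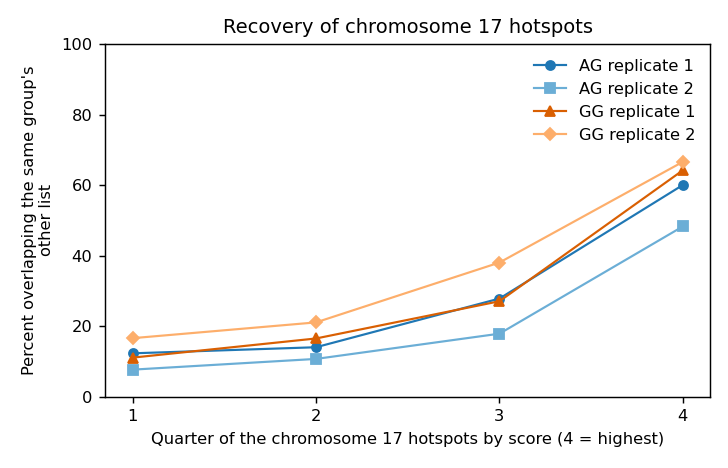
Percent of chromosome 17 hotspots that overlap the same group's other list by at least 1 bp (vertical axis), by score class within each library's chromosome 17 hotspots (4 classes of equal number, 4 is the highest), with a line for each library. Shares run from 7.69 to 16.6% in the lowest class to 48.3 to 66.6% in the highest.

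Among regions called in all 4 lists, the highest-scoring were among the strongest hotspots of each whole list. The region of all 4 lists with the highest lowest score lay at 6544226 to 6545436 (1211 bp), with scores of 719 and 725 in AG and 766 and 645 in GG, which placed it among the 6 highest hotspots of each whole list. A second such region followed 0.853 kb further on, at 6546290 to 6547236, with scores of 131 and 387 in AG and 262 and 215 in GG. The region at 70262955 to 70264219 stood in the sparse part of the chromosome, with scores of 213 and 438 in AG and 389 and 312 in GG, 66.4 kb from the nearest other region of all 4 lists. The region at 2409547 to 2412891 had scores of 160 and 241 in AG and 291 and 255 in GG.

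The remaining 4 of the 8 top regions lay close together, at 9004639 to 9006314, 9065689 to 9069537, 9176664 to 9179200 and 9254368 to 9256261. Their scores were 119 to 188 in AG replicate 1, 194 to 297 in AG replicate 2, 157 to 245 in GG replicate 1 and 133 to 213 in GG replicate 2. The stretch of 400 kb from 8900001 to 9300000, delimited after these values were seen, held 11 and 11 of the 36 and 44 chromosome 17 hotspots that ranked in the top 1% of their whole AG lists, and 13 and 12 of the 40 and 32 in GG. Of its bp, 3.09 and 4.09% were in hotspots in AG and 3.81 and 3.43% in GG. Across the chromosome, 2.18 and 1.97% of hotspots ranked in the top 1% of their list in AG and 1.39 and 1.32% in GG.

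The 5 widest regions of all 4 lists lay at 27394088 to 27404021 (9934 bp), 59945829 to 59955425 (9597 bp), 27211081 to 27219722 (8642 bp), 76255875 to 76264455 (8581 bp) and 4384678 to 4393136 (8459 bp), with scores between 6.56 and 14.8 in every list. Each was made of several hotspots in most lists. At 59945829, 3565 and 2307 bp were covered in AG and 9049 and 6253 bp in GG, and at 76255875, 4059 and 3164 bp (AG) and 8365 and 5578 bp (GG), so the GG libraries covered more of both regions than either AG library.

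Among GG-only regions, that at 2304466 to 2305828 (1363 bp) had by far the highest scores, 142 in GG replicate 1 and 98.9 in GG replicate 2, which rank 55th and 76th in the whole lists. The nearest hotspot of AG replicate 1 was 2.53 kb away and that of AG replicate 2 was 10.9 kb away, and a region of all 4 lists lay 12.0 kb away. The regions at 9106018 to 9106934 (scores 39.2 and 36.2) and 8950345 to 8951000 (34.5 and 31.0) both fell inside the 400 kb stretch of strong shared sites. The region at 42714069 to 42714976 (25.03 and 19.4) lay in the sparse middle, 447 kb from the nearest region of all 4 lists. The next 4, at 4661630, 28490578, 81195669 and 80243477, had weaker scores of 11.1 to 12.6 in their weaker list and each lay within 10 kb of a region of all 4 lists.

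Among AG-only regions, the highest by score in the weaker list, at 13113145 to 13115168 (2024 bp), had a score of 16.98 in AG replicate 1 and one of 19.5 in AG replicate 2, with the nearest GG hotspots 45.3 and 37.3 kb away. It was followed by 15920848 to 15924305 (scores 14.6 and 29.6), 1626674 to 1627576 (11.8 and 15.7), 58360950 to 58363173 (13 and 11.4) and 42720001 to 42721777 (11.3 and 11.8). The region at 234 to 11455, which begins at the first hotspot of the chromosome, was 11222 bp wide, with 7365 bp covered in AG replicate 1 and all of it in AG replicate 2 (scores 10.7 and 15.8), and the nearest hotspot of either GG list was over 54 kb away. The last named were 92815958 to 92816383 (12.6 and 11.0) and 42072350 to 42073917 (9.74 and 12.4). Over all group-only regions of the chromosome, the median score in the weaker list was 5.17 for AG-only and 5.03 for GG-only regions. The lowest scores of the lists on the chromosome were 4.07 to 4.33. These medians come from different lists and are not set against each other.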

How the data were processed

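DNase-seq was measured in 4 libraries, 2 AG and 2 GG, grouped by their labels. The authors deposited 1 hotspot list per library, giving chromosome, start, end and a score. How that deposited score was scaled, and which program called hotspots, is not given in the sources used here. In the submitters' processing notes stand the build rheMac8 and the tools deepTools (3.3.1), SAMtools, Bowtie2 and Trim Galore; what each did is not stated there. Sequencing depth, batch and date were not used here.

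Chromosome, lists and rules were chosen with earlier results of these data known. Chromosome length was the end of its last hotspot (95.7 Mb). Hotspots were merged across lists, and covered bp was summed in 1 Mb windows. All 2682 windows were fitted together with limma (lmFit, eBayes; no variance trend, no robust fit, no replicate block), and single values were compared by exact permutation over libraries. Fit and region counts were tested on simulated data. In each direction 8 group-only regions were named by their score in the weaker list, 6 windows by p and 4 by difference. Also named were the 8 strongest and 5 widest regions of all 4 lists, the 5 strongest of 1 list, the 5 fullest and 5 emptiest windows, the 3 longest runs per direction and the 5 longest empty stretches. Alternatives changed the lists (upper 50% by score, equal number, equal covered length, each library left out), the overlap and merging rules, and the window size, offset, minimum, scaling and limma settings. AG and GG libraries of the same number share only that number per the labels. Without a rheMac8 genome here, no sequence is shown and no gene is placed. Software was R 4.3.3 with limma 3.58.1 and, for all else, Python 3.11.15 (pandas 2.3.3, numpy 2.4.6, matplotlib 3.10.9).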

Additional observations from a re-analysis of the deposited data

How the results depend on the processing

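The AG minus GG difference in share of covered bp was -0.261 with lists of equal covered length, and kept its direction under every alternative run. Hotspot density relative to the other autosomes, 0.772 on average over the libraries, was 0.719 in the higher-scoring 50% of lists and 0.731 with equal covered length. AG minus GG in the percentage of windows without a hotspot was 4.17 in the higher-scoring 50% and 8.35 at 200 kb, from 0. The difference in concentration, 2.33 percentage points, turned to -0.481 with equal covered length. In the higher-scoring 50% there were 68 AG-only and 194 GG-only regions and a Jaccard excess of 0.0715. With equal covered length there were 167 GG-only regions, and with 50% of a region covered 81 were in all 4 lists. Leaving out each library gave 147 to 1532 AG-only regions, 448 to 2090 GG-only regions, since a region then needs only 1 list of the reduced group, and a Jaccard excess of 0.0147 to 0.0912.

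Windows of chromosome 17 past an adjusted p of 0.05 by limma numbered 4 with an offset of 10000 bp and 4 with a variance trend. Over all 2682 windows these settings called 136 and 218. No minimum, median scaling and centring within chromosomes called 1 window each on chromosome 17. Over all windows they called 2 of 2844, 2 of 2682 and 16 of 2682. The other alternatives that kept all 4 libraries called 0. With the replicate number as a block, limma called 0 windows, 16 were over 2-fold higher in GG, and 16 had an unadjusted p under 0.05 (17 without the block). Deviations of same-numbered libraries correlated at -0.0842 across 2682 windows, which does not pair them. Windows over 2-fold higher in GG numbered 2 with the larger offset, 6 when centred, and 10 and 8 with equal number and equal covered length. They numbered 129 of 472 at 200 kb and 10 to 21 without single libraries. Over all windows of the genome, 18.8% were over 2-fold higher in GG at 200 kb, and 5.93 to 14.4% without single libraries. On chromosome 17, those over 2-fold higher in AG numbered 1 with median scaling, 3 when centred, 51 at 200 kb and 1 with equal covered length. Without single libraries they numbered 0 to 1. Shares of all windows over 2-fold higher in AG are not given for these settings.

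Of 22 named windows, 6 turned direction somewhere, each with a small main difference or low coverage; the cause was not tested. With median scaling the windows at 7000001 and 27000001 came to 0.0917 and 0.11. Centring within chromosomes shifts the differences of all windows of chromosome 17 by the same amount. With it, the windows at 1000001, 7000001, 9000001 and 27000001 came to 0.21, 0.36, 0.16 and 0.37. In the higher-scoring 50%, those at 7000001, 27000001 and 85000001 came to 0.0047, 0.19 and 0.31. With equal covered length, those at 27000001 and 36000001 came to 0.0222 and 0.27. Without single libraries the ranges were -0.40 to 0.0367 at 1000001, -0.21 to 0.15 at 7000001, -0.10 to 0.0596 at 27000001 and -1.28 to 0.0483 at 36000001. Depth is unknown, so whether a hotspot missing from a list was closed or too thinly sequenced cannot be told apart.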

Other observations

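Some strong hotspots of chromosome 17 were called in 1 list only. The strongest lay at 8955835 to 8956847 in AG replicate 2, with a score of 139, which ranks 72nd in that list. AG replicate 1 and both GG lists had hotspots 1.48, 2.34 and 1.63 kb away. The next lay at 17006335 to 17006704 (370 bp, score 88.0, AG replicate 1), 62000441 to 62000971 (531 bp, score 67.8, AG replicate 2), 45657669 to 45657824 (156 bp, score 44.3, AG replicate 1) and 28927283 to 28928040 (758 bp, score 28.4, AG replicate 1). All 5 belonged to AG lists. They were picked across lists by a score of unstated scale, so this is not read as a difference between the groups. By comparison, the median lowest score over all 5308 regions of 1 list was 4.87.

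A GG-only and an AG-only region lay close together in the sparse middle of the chromosome. The GG-only region at 42714069 to 42714976 and the AG-only region at 42720001 to 42721777 were 5.02 kb apart, and the nearest region of all 4 lists was 447 and 452 kb away. On the whole chromosome, 8 of 351 GG-only regions lay within 10 kb of an AG-only region, and the median distance from a GG-only to the nearest AG-only region was 285 kb. This pair was picked out after its values were seen and carries no test.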
